A study of Homo sapiens with 9 samples.

Results

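The genes described here are those of cholesterol and fatty acid synthesis: the enzymes that make sterols from acetyl-CoA, the enzymes that make, desaturate and elongate fatty acids, the enzymes that activate them, and the SREBP system that controls both pathways. Of 43 genes listed by name, 35 were measured alone, out of 14207 genes in all. ACAT2, CYP51A1, HSD17B7, SREBF2 and ELOVL5 shared every probe set of theirs with another named gene and get no value, and FDFT1, ELOVL7 and ACSL3 were not analysed here. The list follows gene function.

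Transcript levels were measured on 9 exon arrays of the human cell line ARPE-19, which derives from retinal pigment epithelium, with 3 arrays each of vehicle, 100 µg/ml and 250 µg/ml cigarette smoke condensate. Cells of all 3 groups were grown with serum to confluence and then kept in medium holding 1% albumin. The condensate came as a commercial DMSO solution of 40 mg/ml containing 6% nicotine, and the duration of exposure was not stated in the sources used here. Whether arrays of a group stem from separate cultures is not labelled, so the p-values reflect only how these arrays spread, which may be technical. Values are the deposited log2 summaries, a unit of 1 being a 2-fold step, and no detection calls were used. Fewer cells of a kind and less RNA per cell cannot be told apart in such bulk RNA.

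The array medians lay between 4.42 and 4.59. Vehicle array 1 had the lowest upper quartile, 6.45, against a highest of 6.73. Among markers of the retinal pigment epithelium, MITF, OTX2, KRT8 and KRT18 lay above the upper quartile on 9 of 9 arrays. RPE65, BEST1 and TTR, genes of the differentiated tissue, lay below the lower quartile on 9 of 9 arrays, RLBP1 on 7 and SERPINF1 on 1. PMEL lay between the quartiles on all 9, and TYRP1 lay above the upper quartile on 5 and below the lower on 0. The endothelial markers PECAM1 and CDH5 and the leukocyte marker PTPRC lay below the lower quartile on 9 arrays, and the endothelial marker VWF on 8. CD3E (immune) and NRL (photoreceptor) lay between the quartiles on all 9. CD68, a lysosomal protein of macrophages, lay above the upper quartile on 9. Against vehicle, 9 of 11 retinal pigment epithelium markers lay below the vehicle mean at 250 µg/ml (median log2 change -0.37) and 11 of 11 at 100 µg/ml (median -0.25). Over all genes 8135 of 14207 lay below it at 250 µg/ml and 8416 at 100 µg/ml. Of 7 markers of other cells, 5 did at 250 µg/ml and 6 at 100 µg/ml. Changes of the markers under the lower quartile are counted here but are not resolved. Of the 11 pigment epithelium markers, 0 passed the test at either dose. At an unadjusted limma p under 0.05, 2 of them were lower at 250 µg/ml, where 7.9% of all genes were, and 3 at 100 µg/ml, where 7.65% were. The part of these markers in the results that follow was not tested.

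Cholesterol is built from acetyl-CoA through mevalonate, farnesyl diphosphate, squalene and lanosterol. Fatty acids start from the same acetyl-CoA, are made by fatty acid synthase as palmitate, and are then elongated and desaturated at the endoplasmic reticulum. SREBP transcription factors drive both sets of genes: when sterols are low, SCAP escorts SREBP to the Golgi for cleavage, and when sterols are high, INSIG proteins hold SCAP back. The retinal pigment epithelium takes up lipid-rich photoreceptor outer segments and supplies photoreceptors with polyunsaturated fatty acids.

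At 250 µg/ml, 2 of the 35 genes rose: ELOVL6, which elongates palmitate, and SLC27A4, which activates and takes up long-chain fatty acids. No member of the sterol pathway passed the test in either direction. Genes past the threshold of an adjusted p of 0.05 (limma, over 14207 genes) at 250 µg/ml made up 0.549% of all genes, and those that rose 0.387%, while the 2 members made up 5.71% of the members. None of the 35 (0) passed at 100 µg/ml, where 0.0633% of all genes did (9 genes). Between 250 and 100 µg/ml 0 of 35 passed, where 0% of all genes did. At an unadjusted limma p under 0.05, 2 members and 1.84% of all genes differed between these doses. With the array number as a block, since arrays of both doses with the same number deviated together, this was 4 members (3.29% of all genes) over 9 arrays. That block also matched the vehicle arrays by number, although the data gave no ground for pairing them. Over the 6 arrays of both doses alone the count was 10 members (11.2% of all genes). Of these, 5 were higher (ACSL1, ELOVL4, MVD, SCAP and SLC27A4) and 5 lower (ACSL5, EBP, ELOVL2, INSIG2 and STARD4). In that fit of 6 arrays INSIG2 differed by -0.47 ± 0.09 between 250 and 100 µg/ml, ELOVL2 by -0.40 ± 0.09 and SLC27A4 by 0.41 ± 0.09. Their limma adjusted p-values were 0.207, 0.234 and 0.234, and 0 members and 0 genes in all passed the threshold with either block. ELOVL2 lay below the array median on every array and was not shown to be above background, so its difference is not resolved.

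Counts without adjustment stand beside the same counts over all genes. At 250 µg/ml 8 members had an unadjusted limma p under 0.05 and were higher, against a background of 8.74% of all genes, and 2 were lower, against 7.9%. At 100 µg/ml these counts were 6 against a background of 7% and 1 against 7.65%. As shares of the members, the higher ones came to 22.9% at the higher dose and 17.1% at the lower one. On 7 members, or 20%, the 250 µg/ml arrays all lay above the vehicle arrays (8.61% of all genes), and on 2 they all lay below (14.3% of all genes). Wholly above vehicle at 100 µg/ml lay 5 members (6.41% of all genes), and 0 lay wholly below (11.9% of all genes). The median log2 change of the 35 members was 0.07 at 250 µg/ml and 0.13 at 100 µg/ml, beside -0.04 and -0.05 over all genes. The median at 250 µg/ml was 0.31 without vehicle array 2, -0.02 without vehicle array 1 and below 0 (-0.0029) without the third 250 µg/ml array. The plot of changes by gene shows that the members are not of a kind: the sterol enzymes scatter around 0, and the 4 largest positive changes at 250 µg/ml are those of ELOVL6, SLC27A4, ELOVL4 and FADS1.

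**Figure D1:**
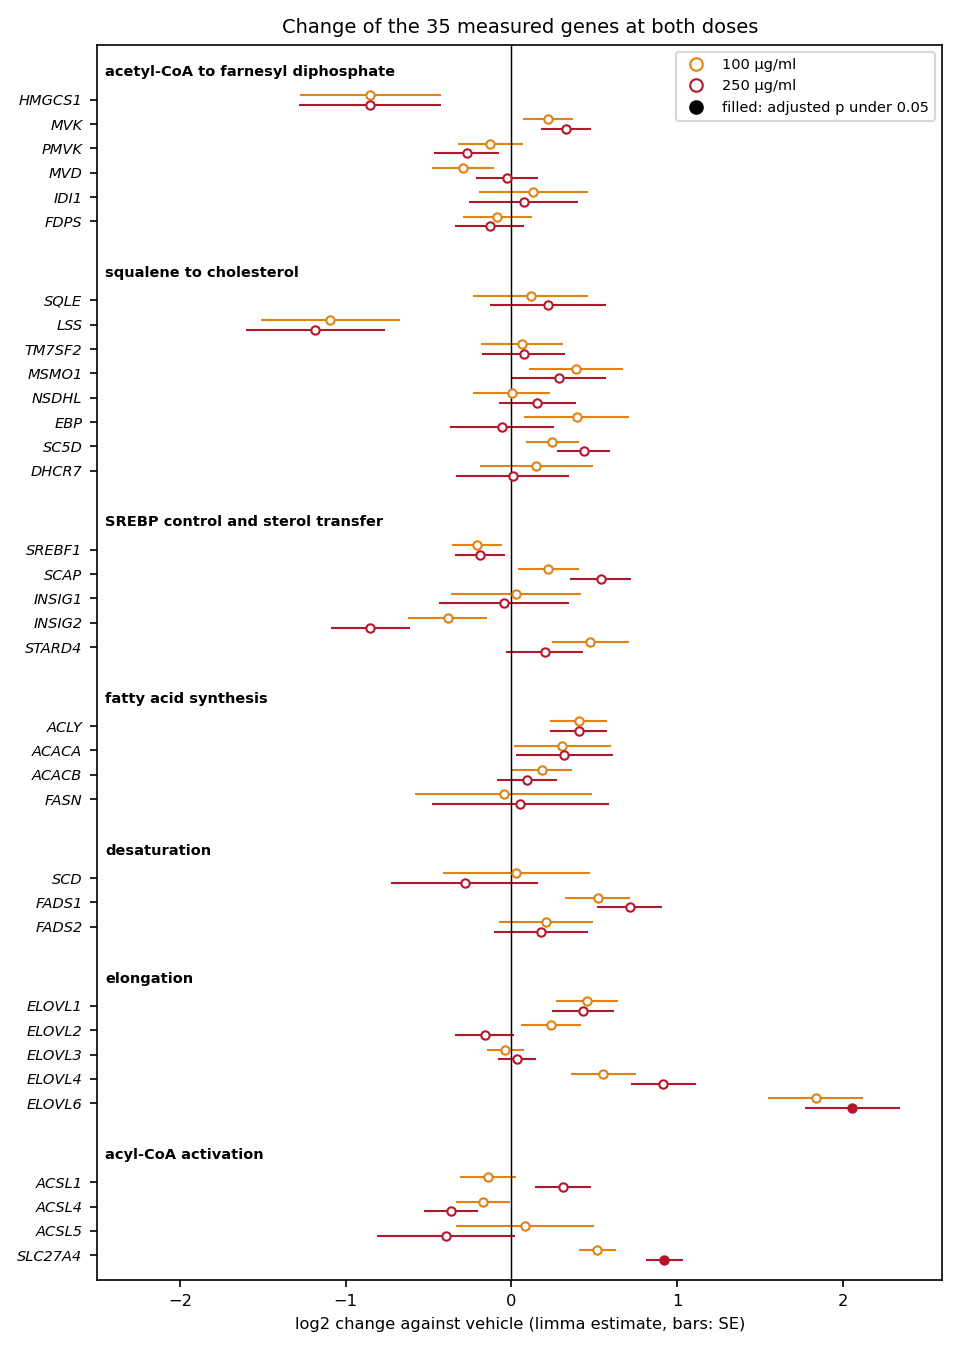
Log2 change against vehicle (x axis, limma estimate with its standard error as a bar) of the 35 measured genes, grouped by step, at 100 µg/ml (orange, upper point of each pair) and 250 µg/ml (red, lower point). Filled points mark an adjusted p under 0.05, which only ELOVL6 and SLC27A4 at 250 µg/ml reached.

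Elongation was the group with the highest median change. Elongases add carbon units to fatty acids, and each of the family prefers its own chain lengths. Of 5 measured elongases, 1 rose at 250 µg/ml, where 0.387% of all genes did. At each dose 4 lay above the vehicle mean (median log2 change 0.43 at 250 µg/ml and 0.45 at 100 µg/ml). Over all genes 6072 of 14207 lay above it at 250 µg/ml and 5791 at 100 µg/ml. With quantile normalization 5 elongases lay above the vehicle mean at 100 µg/ml and 4 at 250 µg/ml. The mean of the 5 genes was 5.01, 5.01 and 5.27 on vehicle arrays 1 to 3, 5.80, 5.72 and 5.60 at 100 µg/ml, and 5.89, 5.84 and 5.52 at 250 µg/ml. This mean leans on ELOVL6, which changed by 2.06 at 250 µg/ml, beside -0.16 to 0.92 for the others. It does not show a rise shared by the family, and changes of ELOVL2, ELOVL3 and ELOVL4 are not resolved (below).

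ELOVL6, whose enzyme turns palmitate into stearate, carried the largest change of any member. Its log2 values were 6.01, 5.80 and 6.28 with vehicle, 7.93, 8.12 and 7.55 at 100 µg/ml, and 8.16, 8.63 and 7.48 at 250 µg/ml. All 6 condensate arrays lay above all 3 vehicle arrays, and the arrays numbered 3 were the lowest at both doses. At 250 µg/ml ELOVL6 rose by 2.06 ± 0.28 log2 units (SE, n = 3 each), or 4.16-fold, with a limma adjusted p of 0.0291 and a 95% interval of 1.41 to 2.71. At 100 µg/ml the change was 1.84 ± 0.28, or 3.57-fold, with a limma adjusted p of 0.0919. The arrays of both doses overlapped, and the difference between 250 and 100 µg/ml was 0.22 ± 0.28 with a limma adjusted p of 1. The call at 250 µg/ml was lost, with limma adjusted p between 0.0546 and 0.113, on leaving out vehicle array 1 or 2, or array 1 or 2 of either dose, and in a fit of 6 arrays alone (0.0935). Over the 18 other settings the change at 250 µg/ml stayed between 1.79 and 2.36.

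The promoter of ELOVL6 is shown because this gene changed most, and that of SLC27A4 because it was the other gene past the threshold. The sequences are RefSeq promoters on GRCh38.p14, from 250 bases before to 50 after the start: chr4:110198566-110198865 on the minus strand for ELOVL6 and chr9:128340277-128340576 on the plus strand for SLC27A4. Capitals mark matches, on either strand, to any of 5 motifs: the sterol regulatory element TCACNCCAC, the NF-Y box CCAAT, the E-box CACGTG, the antioxidant response element core TGACNNNGC and the GC box GGGCGG.
ELOVL6: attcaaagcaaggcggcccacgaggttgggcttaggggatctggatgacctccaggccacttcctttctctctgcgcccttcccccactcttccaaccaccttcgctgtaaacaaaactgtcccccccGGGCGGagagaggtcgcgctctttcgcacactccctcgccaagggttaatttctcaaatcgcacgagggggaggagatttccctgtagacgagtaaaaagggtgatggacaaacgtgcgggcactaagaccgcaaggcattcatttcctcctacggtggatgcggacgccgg
SLC27A4: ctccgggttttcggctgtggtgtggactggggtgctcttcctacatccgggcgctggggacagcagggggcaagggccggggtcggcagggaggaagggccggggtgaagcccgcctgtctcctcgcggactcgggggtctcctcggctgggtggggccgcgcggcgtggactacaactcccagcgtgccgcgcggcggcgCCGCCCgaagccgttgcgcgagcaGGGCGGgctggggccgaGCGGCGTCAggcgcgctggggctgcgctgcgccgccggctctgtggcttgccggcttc
In this window ELOVL6 held 1 GC box and no other of the 5 motifs, and SLC27A4 held 2 GC boxes and 1 antioxidant response element core, with no overlap between them. The antioxidant response element core was in 13.6% of 27305 promoters and in 3 of 33 members with a promoter entry (EBP, INSIG2 and SLC27A4). A match is a description of letters and does not show a bound site.

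ELOVL4 and ELOVL1, which make very long chains, were also higher in the condensate groups but did not pass the test. ELOVL4, known for very long polyunsaturated fatty acids in photoreceptors and for a form of inherited macular dystrophy, had log2 values of 3.80, 3.87 and 3.78 with vehicle, 4.69, 4.13 and 4.29 at 100 µg/ml, and 5.12, 4.62 and 4.46 at 250 µg/ml. The condensate arrays lay above the vehicle arrays at both doses, with array 1 the highest of each dose. Its vehicle values lay below the array medians and were not shown to be above background, so the size of the change is not resolved. The fitted change was 0.92 ± 0.20 at 250 µg/ml (limma adjusted p = 0.0773) and 0.55 ± 0.20 at 100 µg/ml (limma adjusted p = 0.274). ELOVL1, which makes very long saturated and monounsaturated chains, had values of 8.40, 8.99 and 9.10 with vehicle, 9.26, 9.38 and 9.21 at 100 µg/ml, and 9.33, 9.39 and 9.05 at 250 µg/ml. The 100 µg/ml arrays lay above vehicle, and the third 250 µg/ml array fell within the vehicle range. Its change was 0.43 ± 0.19 at 250 µg/ml (limma adjusted p = 0.297) and 0.45 ± 0.19 at 100 µg/ml (limma adjusted p = 0.321). ELOVL2, an elongase of polyunsaturated fatty acids, had the lowest change of the family at 250 µg/ml, -0.16 ± 0.18 (limma adjusted p = 0.678). Its values lay below the array median on every array and were not shown to be above background. ELOVL3 changed by 0.03 ± 0.11 at 250 µg/ml (limma adjusted p = 0.9), with values of 2.43 to 2.76 on the 9 arrays, below each array's lower quartile.

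Acyl-CoA synthetases attach coenzyme A to fatty acids before these enter lipids or are oxidised. SLC27A4, the fatty acid transport protein FATP4, rose at 250 µg/ml, and the other 3 measured members of its group did not pass the test. SLC27A4 had log2 values of 5.93, 6.10 and 5.90 with vehicle, 6.36, 6.51 and 6.61 at 100 µg/ml, and 6.78, 6.98 and 6.94 at 250 µg/ml. The 3 groups did not overlap and stood in dose order. The gene rose by 0.92 ± 0.11 log2 units at 250 µg/ml (SE, n = 3 each), or 1.90-fold, with a limma adjusted p of 0.0158 and a 95% interval of 0.67 to 1.18. At 100 µg/ml the change was 0.52 ± 0.11 (limma adjusted p = 0.176). The difference between 250 and 100 µg/ml was 0.41 ± 0.11, with an unadjusted limma p of 0.00602 and an adjusted p of 1. The call at 250 µg/ml was lost without 100 µg/ml array 2 (limma adjusted p = 0.0541), without 250 µg/ml array 1 (0.0525) or array 2 (0.123), and with only 6 arrays in the fit (0.0903). Over the 18 other settings the change at 250 µg/ml stayed between 0.85 and 0.98.

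ACSL5 had the lowest change of that group at 250 µg/ml, -0.39 ± 0.42 (limma adjusted p = 0.662), with 4.80 on the third 250 µg/ml array against 5.89 and 5.94 on the others. In the blocked fit of the 6 arrays of both doses, ACSL5 differed by -0.48 ± 0.11 between 250 and 100 µg/ml. Its unadjusted limma p there was 0.00387 and its adjusted p 0.244. ACSL4, which prefers arachidonate, changed by -0.37 ± 0.16 at 250 µg/ml (limma adjusted p = 0.306). ACSL1, which serves triglyceride synthesis and oxidation, was besides SLC27A4 the other member with an unadjusted limma p under 0.05 between the doses without a block. It differed by 0.45 ± 0.17 between 250 and 100 µg/ml, with an unadjusted limma p of 0.0269 and an adjusted p of 1, on values of 7.51, 7.60 and 7.10 at 250 µg/ml, against 6.84, 6.96 and 7.06 at 100 µg/ml.

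Desaturases place double bonds in fatty acids. FADS1, the delta-5 desaturase of polyunsaturated fatty acids, had values of 7.99, 8.66 and 8.03 with vehicle, 8.71, 8.58 and 8.96 at 100 µg/ml, and 8.81, 8.90 and 9.11 at 250 µg/ml. All 250 µg/ml arrays lay above the vehicle arrays, while the second 100 µg/ml array lay below vehicle array 2. Its change was 0.71 ± 0.20 at 250 µg/ml (limma adjusted p = 0.138) and 0.52 ± 0.20 at 100 µg/ml (limma adjusted p = 0.292). SCD, which makes oleate from stearate, had the lowest change of the group at 250 µg/ml, -0.28 ± 0.44 (limma adjusted p = 0.78). Its vehicle arrays alone ran from 8.17 to 10.18, with 8.94 between them, and enclosed the 100 µg/ml values of 9.49, 9.20 and 8.69 and the 250 µg/ml values of 8.95, 8.77 and 8.73. FADS2, the delta-6 desaturase, changed by 0.18 ± 0.28 at 250 µg/ml (limma adjusted p = 0.786).

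Of the 4 genes of fatty acid synthesis proper, 0 passed the test, 1 (ACLY) was higher at an unadjusted limma p under 0.05 at both doses (8.74% of all genes at 250 µg/ml and 7% at 100 µg/ml), and their median log2 change was 0.21 at 250 µg/ml and 0.24 at 100 µg/ml. ACLY, which splits citrate into acetyl-CoA for both pathways, had values of 9.31, 9.53 and 8.80 with vehicle, 9.54, 9.74 and 9.58 at 100 µg/ml, and 9.63, 9.63 and 9.60 at 250 µg/ml. Its condensate arrays lay above the vehicle arrays at both doses, narrowly so for array 1 at 100 µg/ml, and the change was 0.40 ± 0.17 at 250 µg/ml (limma adjusted p = 0.294) and 0.41 ± 0.17 at 100 µg/ml (limma adjusted p = 0.332). FASN, fatty acid synthase itself, had 7.72, 7.48 and 5.75 with vehicle, 6.70, 6.50 and 7.61 at 100 µg/ml, and 6.82, 6.67 and 7.61 at 250 µg/ml. Vehicle array 3 was the lowest of the 9, the condensate arrays numbered 3 were the highest of their groups, and the change at 250 µg/ml was 0.05 ± 0.53 with a 95% interval of -1.16 to 1.27 (limma adjusted p = 0.971). ACACA, the acetyl-CoA carboxylase that commits carbon to fatty acids, had 6.67, 5.92 and 5.43 with vehicle, 6.22, 6.23 and 6.50 at 100 µg/ml, and 6.07, 6.25 and 6.66 at 250 µg/ml. These overlapped, with a change of 0.32 ± 0.29 at 250 µg/ml (limma adjusted p = 0.612). ACACB, its mitochondrial relative, changed by 0.10 ± 0.18 (limma adjusted p = 0.818). ACACB lay below the array median on every array and was not shown to be above background, so its change is not resolved.

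**Figure D2:**
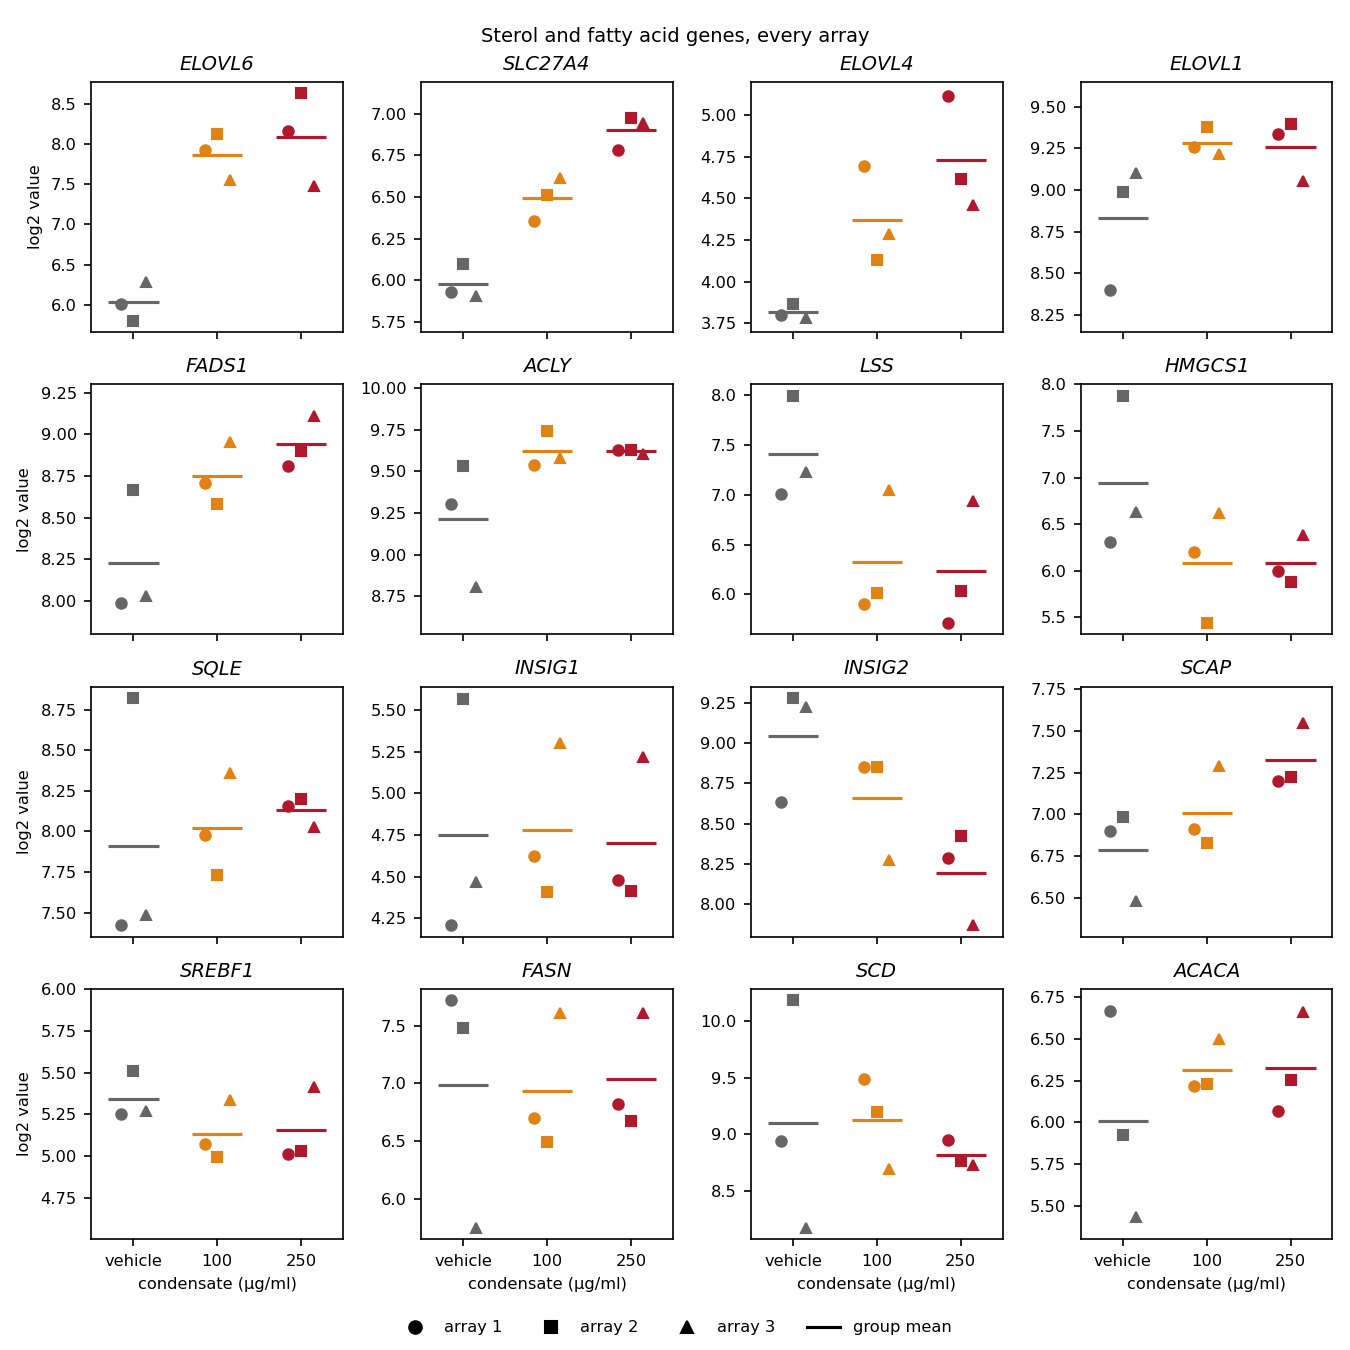
Deposited log2 values (y axis, a scale of its own in each panel) of 16 genes on every array at vehicle, 100 and 250 µg/ml (x axis), with circles, squares and triangles for arrays 1, 2 and 3 and a bar at the group mean. At 250 µg/ml ELOVL6, SLC27A4, ELOVL4, FADS1, ACLY and SCAP lie wholly above vehicle (8.61% of all genes do). LSS and INSIG2 lie wholly below (14.3% of all genes do). The vehicle arrays of SQLE, INSIG1, HMGCS1, SCD, FASN and ACACA each span more than 1 log2 unit.

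In the sterol pathway 14 enzymes were measured, and 0 passed the test at either dose. At an unadjusted limma p under 0.05, SC5D was higher and LSS lower at 250 µg/ml (8.74% and 7.9% of all genes), and LSS was lower at 100 µg/ml (7.65% of all genes). At 250 µg/ml 8 lay above and 6 below the vehicle mean (median log2 change 0.04), and at 100 µg/ml 9 above and 5 below (median 0.09). With quantile normalization these were 6 above and 8 below at 250 µg/ml (median -0.03) and 7 and 7 at 100 µg/ml (median 0.03), so the genes had no common direction that held across scalings. Vehicle array 2 was the highest vehicle array for 13 of the 14 enzymes and vehicle array 1 the lowest for 13, where over all genes these shares were 37.8% and 41%. Vehicle array 2 was the highest of all 9 arrays for 9 of the 14. The mean over the 14 enzymes was 6.35, 7.27 and 6.66 on vehicle arrays 1 to 3, 6.52, 6.64 and 6.96 at 100 µg/ml, and 6.52, 6.68 and 6.89 at 250 µg/ml. Their median SD within a group was 0.52 with vehicle, 0.28 at 100 µg/ml and 0.20 at 250 µg/ml, beside 0.21, 0.18 and 0.16 over all genes. Without vehicle array 2 the median change of the 14 was 0.30 at 250 µg/ml and 0.26 at 100 µg/ml, and without vehicle array 1 it was -0.18 and -0.19. On leaving out condensate arrays, it was -0.06 at 250 µg/ml without array 3 of that dose and 0.15 without array 1, and -0.03 at 100 µg/ml without array 3 of that dose and 0.20 without array 1. The sign of the median thus turned on single arrays, vehicle and condensate, and the plot of list means by array shows their spread.

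**Figure D3:**
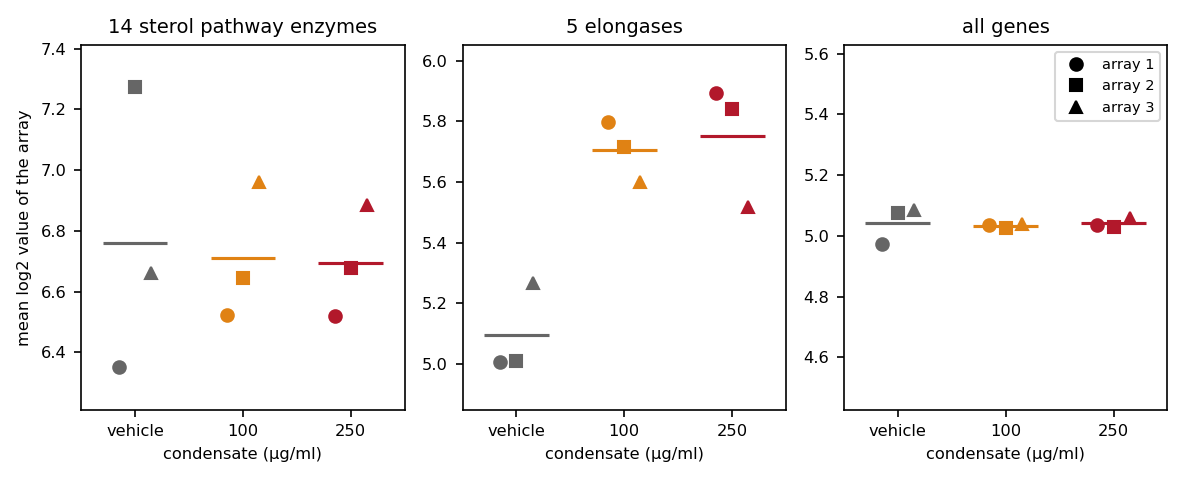
Mean log2 value per array (y axis) of the 14 sterol pathway enzymes, the 5 elongases and all 14207 genes at vehicle, 100 and 250 µg/ml (x axis), all panels spanning the same height, with bars at group means. The sterol enzymes run from 6.35 to 7.27 within the vehicle group and enclose every condensate array. The elongase means of the condensate arrays all lie above vehicle, but they lean on ELOVL6, the elongase with the largest change. The means of all genes lie between 4.97 and 5.08.

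Among the 6 enzymes from acetyl-CoA to farnesyl diphosphate, HMGCS1 and MVK marked the ends of the range. HMGCS1, which forms HMG-CoA, had values of 6.31, 7.88 and 6.63 with vehicle, 6.21, 5.44 and 6.62 at 100 µg/ml, and 6.00, 5.88 and 6.38 at 250 µg/ml. Vehicle array 2 stood more than 1 unit above the other arrays, and the groups overlapped. The change was -0.85 ± 0.43 at both doses, with limma adjusted p-values of 0.356 (250 µg/ml) and 0.401 (100 µg/ml). MVK, mevalonate kinase, changed by 0.33 ± 0.15 at 250 µg/ml (limma adjusted p = 0.314). The others, the kinase PMVK, the decarboxylase MVD, the isomerase IDI1 and the farnesyl diphosphate synthase FDPS, lay between -0.27 and 0.07.

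The promoters of HMGCS1 and MVK are shown as the ends of that range, and because NF-Y boxes, which accompany SREBP sites in many sterol genes, were common in this pathway. They lie at chr5:43313363-43313662 on the minus strand and chr12:109573544-109573843 on the plus strand (RefSeq, GRCh38.p14), with capitals as above.
HMGCS1: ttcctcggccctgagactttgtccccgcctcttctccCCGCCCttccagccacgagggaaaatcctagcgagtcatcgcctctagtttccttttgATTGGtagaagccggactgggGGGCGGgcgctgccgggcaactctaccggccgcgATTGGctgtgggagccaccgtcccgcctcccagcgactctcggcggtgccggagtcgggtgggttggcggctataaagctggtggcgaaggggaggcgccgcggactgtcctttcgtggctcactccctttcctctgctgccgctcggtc
MVK: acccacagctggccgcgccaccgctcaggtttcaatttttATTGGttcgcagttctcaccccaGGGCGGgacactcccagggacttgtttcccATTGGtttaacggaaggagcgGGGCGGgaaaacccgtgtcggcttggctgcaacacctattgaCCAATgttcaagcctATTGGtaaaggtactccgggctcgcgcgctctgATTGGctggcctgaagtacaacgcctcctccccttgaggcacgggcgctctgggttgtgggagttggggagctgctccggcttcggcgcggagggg
HMGCS1 held 2 NF-Y boxes and 2 GC boxes, and MVK held 5 NF-Y boxes and 2 GC boxes. Of 13 sterol pathway enzymes with a promoter entry, 11 (84.6%) held at least 1 NF-Y box, against 5 of 15 fatty acid genes (33.3%) and 35.7% of all 27305 promoters. Those 27305 promoters were not limited to the measured genes or matched to the members in base content. The shares are thus a description, and their differences were not tested. The GC box was in 29 of 33 members (87.9%) and 44.6% of all promoters, and the E-box in 5 members (15.2%) and 7.43% of all promoters. The sterol regulatory element as spelled above was in 0 of 33 members and 1.15% of all promoters, which says only that these letters are not in these windows. No entry was matched for FASN and SQLE.

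Between squalene and cholesterol, 8 enzymes were measured. LSS, which closes squalene epoxide into lanosterol, had the lowest change of any member: 7.01, 8.00 and 7.23 with vehicle, 5.90, 6.01 and 7.05 at 100 µg/ml, and 5.71, 6.04 and 6.94 at 250 µg/ml. All 250 µg/ml arrays lay below vehicle, the third 100 µg/ml array did not, and arrays 1 and 2 of each dose lay about 1 unit below array 3. The change was -1.18 ± 0.42 at 250 µg/ml (limma adjusted p = 0.221) and -1.09 ± 0.42 at 100 µg/ml (limma adjusted p = 0.296). SQLE, squalene epoxidase and a rate-limiting step, had 7.42, 8.82 and 7.48 with vehicle, 7.98, 7.73 and 8.36 at 100 µg/ml, and 8.16, 8.20 and 8.03 at 250 µg/ml. Vehicle array 2 lay above all other arrays and the other vehicle arrays below them, and the change at 250 µg/ml was 0.22 ± 0.35 with a 95% interval of -0.58 to 1.02 (limma adjusted p = 0.781). SC5D, a late desaturase of the sterol ring, had the highest change of the group, 0.44 ± 0.16 at 250 µg/ml (limma adjusted p = 0.231), and its 250 µg/ml arrays, 7.29, 7.26 and 7.38, lay above the vehicle arrays, 6.52, 7.11 and 6.99. The other 5, TM7SF2, MSMO1, NSDHL, EBP and DHCR7, which reshape the sterol ring and its methyl groups, lay between -0.06 and 0.28 at 250 µg/ml.

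Of 5 genes of SREBP control and sterol transfer, 0 passed the test, while SCAP and INSIG2 had an unadjusted limma p under 0.05 at 250 µg/ml and none (0) had at 100 µg/ml. That is 1 higher and 1 lower of 5, where 8.74% of all genes were higher and 7.9% lower at 250 µg/ml. INSIG2, which retains SCAP in the endoplasmic reticulum, had 8.63, 9.28 and 9.22 with vehicle, 8.86, 8.85 and 8.28 at 100 µg/ml, and 8.29, 8.42 and 7.87 at 250 µg/ml. All 250 µg/ml arrays lay below vehicle, and the change there was -0.85 ± 0.24 (limma adjusted p = 0.143). INSIG1, which does the same and is itself an SREBP target, had 4.21, 5.57 and 4.47 with vehicle, 4.62, 4.41 and 5.30 at 100 µg/ml, and 4.48, 4.41 and 5.22 at 250 µg/ml. Array 2 was high among the vehicle arrays and array 3 in both condensate groups, with a change of -0.04 ± 0.39 at 250 µg/ml (limma adjusted p = 0.967). SCAP had 6.90, 6.98 and 6.48 with vehicle, 6.91, 6.83 and 7.29 at 100 µg/ml, and 7.20, 7.23 and 7.55 at 250 µg/ml. The 250 µg/ml arrays lay above vehicle, with a change of 0.54 ± 0.18 (limma adjusted p = 0.205). SREBF1, which encodes the SREBP-1 forms that favour fatty acid genes, had 5.25, 5.51 and 5.27 with vehicle, 5.07, 4.99 and 5.33 at 100 µg/ml, and 5.01, 5.03 and 5.42 at 250 µg/ml. The groups overlapped, with a change of -0.19 ± 0.15 at 250 µg/ml (limma adjusted p = 0.552). STARD4, a cytosolic sterol carrier, changed by 0.20 ± 0.23 at 250 µg/ml (limma adjusted p = 0.69).

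**Figure D4:**
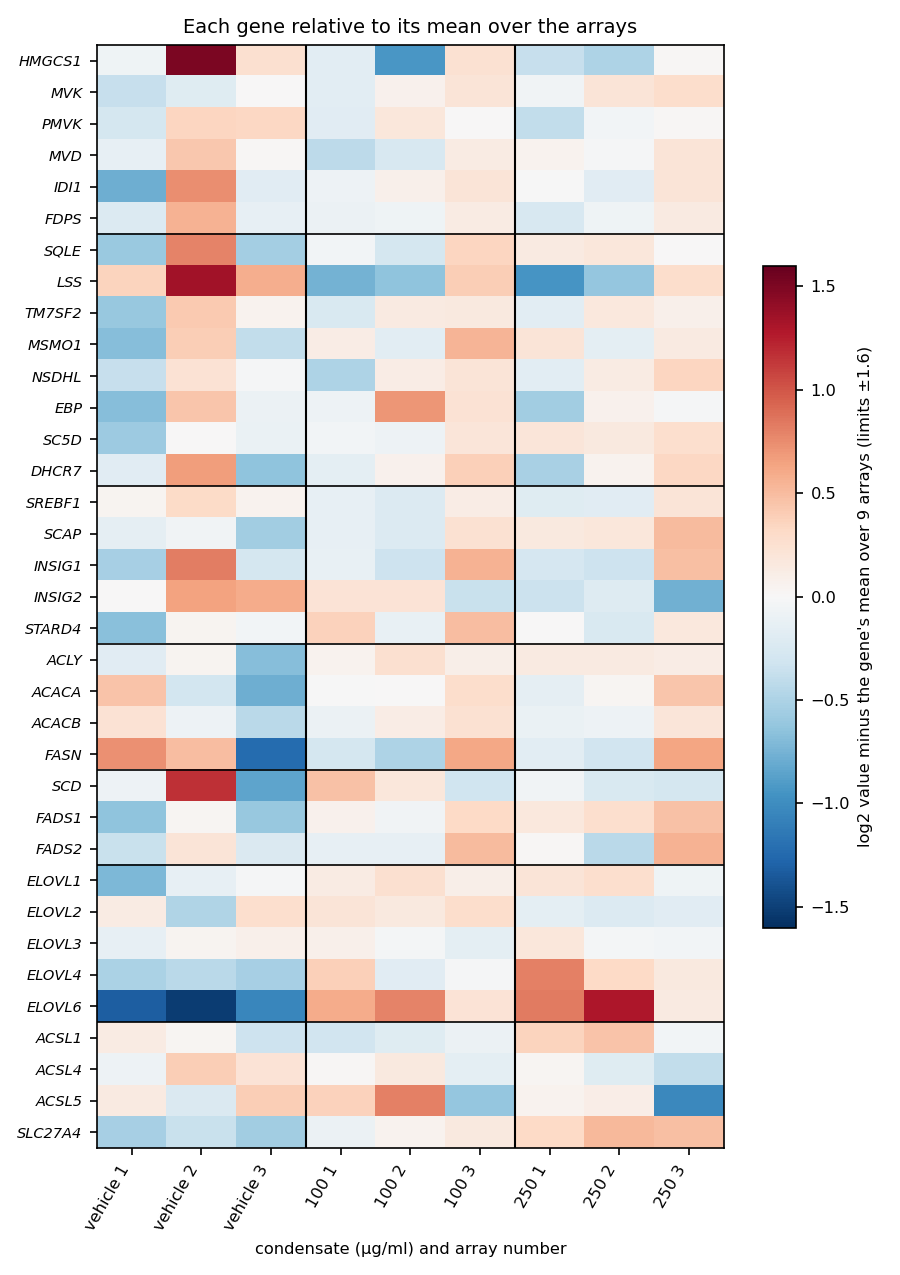
Log2 value of each of the 35 genes minus its mean over the 9 arrays (colour, red above and blue below), with arrays in columns by dose and number and genes in rows by step. Vehicle array 2 is red for most sterol enzymes, ELOVL6 is blue on the 3 vehicle arrays alone, and the condensate arrays numbered 3 differ from 1 and 2 in LSS, INSIG1, FASN and ACSL5.

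Genes around the pathway were read from lists that hold no member. Of 19 further genes of sterol and fatty acid synthesis, 0 passed at 100 µg/ml, where 0.0633% of all genes did. At 250 µg/ml 1 rose, where 0.387% of all genes did. This was ME1, malic enzyme, which makes NADPH for fatty acid synthesis and is also a known target of NRF2. Its values were 6.56, 6.33 and 6.46 with vehicle, 7.66, 7.31 and 7.52 at 100 µg/ml, and 8.49, 8.01 and 7.72 at 250 µg/ml. The groups did not overlap, and ME1 rose by 1.62 ± 0.19 log2 units, or 3.08-fold, at 250 µg/ml (limma adjusted p = 0.0152), with 1.05 ± 0.19 at 100 µg/ml (limma adjusted p = 0.134). Of all genes 8.61% lay wholly above vehicle at 250 µg/ml and 6.41% at 100 µg/ml. The alternative settings were read gene by gene for members only, so how the call of ME1 holds under them is not given. The lowest change at 250 µg/ml was that of SLC27A6, -0.25 ± 0.11 (limma adjusted p = 0.29). The median of the 19 genes was 0.09 at 250 µg/ml and 0.01 at 100 µg/ml.

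In the other lists 0 genes passed the test at either dose. At an unadjusted limma p under 0.05 at 250 µg/ml there were 4 higher and 1 lower of 11 genes of SREBP processing and sterol uptake, and 2 higher and 1 lower of 9 genes of sterol efflux and oxysterol response. These counts were 3 higher and 0 lower of 16 genes of fatty acid oxidation, and 1 higher and 0 lower of 13 genes of triglyceride synthesis and lipid droplets. Over all genes 8.74% were higher and 7.9% lower by this rule. In the list of SREBP processing and sterol uptake (median 0.26 at 250 µg/ml), ERLIN1, which takes part in sterol-controlled protein breakdown at the endoplasmic reticulum, had the highest change at 250 µg/ml, 1.05 ± 0.39 (limma adjusted p = 0.236), and RNF145 the lowest, -0.28 ± 0.12 (limma adjusted p = 0.285). In that of sterol efflux and oxysterol response (median 0.07), LPCAT3, a phospholipid acyltransferase, had 1.07 ± 0.21 (limma adjusted p = 0.0655), and MYLIP, a ligase that degrades lipoprotein receptors, -0.70 ± 0.15 (limma adjusted p = 0.0763). The 250 µg/ml arrays lay wholly above vehicle for LPCAT3 (8.61% of all genes did) and wholly below for MYLIP (14.3% of all genes did). MYLIP lay below the array median on every array and was not shown to be above background, so the size of its change is not resolved. In that of fatty acid oxidation (median 0.06), CPT1A, which joins fatty acids to carnitine for entry into mitochondria, had 0.90 ± 0.30 (limma adjusted p = 0.202) and ETFB -0.36 ± 0.29 (limma adjusted p = 0.56).

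Triglyceride synthesis and lipid droplet genes had a median near 0 (0.0027 over 13 genes at 250 µg/ml), with 1 gene far from it. GPAT3, which starts glycerolipid synthesis, had 3.54, 3.10 and 3.71 with vehicle, 6.47, 6.26 and 4.47 at 100 µg/ml, and 7.08, 7.14 and 5.26 at 250 µg/ml. All condensate arrays lay above vehicle, and array 3 of each dose lay well below arrays 1 and 2. The vehicle values lay below the array medians and were not shown to be above background, so the size of the change is not resolved. The fitted change of 3.04 ± 0.63 at 250 µg/ml did not pass the test (limma adjusted p = 0.0701), nor did 2.28 ± 0.63 at 100 µg/ml (limma adjusted p = 0.211). PLIN2, a lipid droplet coat protein, had the lowest change of that list at 250 µg/ml, -0.36 ± 0.22 (limma adjusted p = 0.447).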

How the data were processed

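Total RNA of 9 samples was hybridised to Affymetrix exon arrays as whole-transcript sense targets, per the labels' protocols. The authors deposited 1 log2 value per probe set and array. RMA, Partek and hg18 are named in the submitters' processing notes, without versions, settings or filters. RMA normalizes arrays together and compresses changes of dim genes.

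Of 17629 probe sets, 14378 named 1 gene. Symbols were updated by gene number through RefSeq (GRCh38.p14), and the probe set with the highest mean was kept where a gene had several (169 genes, none of them a member), leaving 14207 genes. Groups came from the labels. All 3 comparisons were fitted with limma 3.58.1 (R 4.3.3) on 9 arrays, with a mean for each group, limma's default moderation, two-sided tests and Benjamini-Hochberg adjustment over all genes, with a threshold of 0.05; errors are moderated standard errors. The fit was tried on simulated data with noise drawn separately for each array. That leaves out the shared deviations of arrays with the same number, so it cannot show how the fit handles them. The number of arrays limits the precision.

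The members and lists were chosen with earlier results of these data known, so they get no test over the list. Array values are given for members past the threshold, with an unadjusted p under 0.05 at both doses, or fixed as step and control genes; the values of INSIG2, SC5D, ACSL1 and ACSL5 were added after they were seen. In each of the 7 groups the highest and lowest change at 250 µg/ml is named, and in each further list the genes past the threshold or else the extremes. GPAT3 is given array by array for its size, as chosen after its values were seen.

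Deviations of arrays with the same number correlated at 0.603, 0.443 and 0.682 between 250 and 100 µg/ml, which pairs those groups from the data and not from the labels. Against vehicle the correlations included values below 0, and no pairing was taken. The 18 alternatives changed the scaling, moderation, array weights, arrays fitted, filter, probe set rule or replicate block, or left out arrays. A block over only the 6 arrays of both doses was added after seeing the data. Promoter letters were searched with Python 3.11.15.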

Additional observations from a re-analysis of the deposited data

How the results depend on the processing

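ELOVL6 and SLC27A4 kept their direction at 250 µg/ml in all 18 alternatives and stayed past the threshold in 11 and 14 of them, with limma adjusted p of 0.0118 to 0.113 and 0.012 to 0.123. The count of members past the threshold at 250 µg/ml was 0 in a fit of only 6 arrays, and 0 to 2 on leaving out 1 array. Without vehicle array 1 or 2, or 100 µg/ml array 1, it was 1 (SLC27A4), and without 100 µg/ml array 2 or 250 µg/ml array 1 or 2 it was 0. At 100 µg/ml it was 1 (ELOVL6) with array weights (adjusted p = 0.0342) and without the condensate arrays numbered 3 (0.0343). The median change of the members ran from -0.0233 to 0.3052 at 250 µg/ml on leaving out 1 array, and from 0.0184 to 0.2965 at 100 µg/ml.

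Over all genes 78 passed at 250 µg/ml (55 rose, 23 fell). Under the alternatives this was 164 with centred arrays (93 rose, 71 fell), 148 with quantile normalization (76 rose, 72 fell), 170 with trend and robust moderation, 234 with array weights, 1 with only 6 arrays, 130 without the dimmest 25% of genes, 122 with the replicate block and 167 without the condensate arrays numbered 3, and 4 (without 250 µg/ml array 2) to 296 (without vehicle array 3) on leaving out 1 array. At 100 µg/ml the 9 genes became 5 with quantile normalization, 73 with array weights, 1 with only 6 arrays, 3 with the replicate block and 47 without the condensate arrays numbered 3, and 1 to 57 (without vehicle array 3) on leaving out 1 array. Between 250 and 100 µg/ml the replicate block gave 0 genes over 9 arrays, where it also matched vehicle by number, and 0 over the 6 arrays of both doses. Without the block it was 0 as well, and the block changed no call on a member. Fewer arrays in a fit leave fewer degrees of freedom, and the cause of the other shifts was not tested. Among members not past the threshold the sign changed under at least 1 alternative in 12 of 35 at 100 µg/ml, 15 of 33 at 250 µg/ml and 18 of 35 between the doses. ELOVL3 has no value in that filtered fit. No detection calls were used, so changes of dim probe sets such as ELOVL2, ELOVL3, ELOVL4, ACACB, SLC27A6, MYLIP and GPAT3 are not resolved.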
